A study of Drosophila melanogaster with 4 samples.

Results

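The Antennapedia complex is the cluster of homeobox genes on arm 3R of Drosophila melanogaster that holds lab, pb, zen2, zen, bcd, Dfd, Scr, ftz and Antp, in that order along the arm. Enriched regions of histone H3 were taken from 3 lists wherever they overlapped 3R 2480000 to 2830000 (FlyBase release 5) by at least 1 bp. This window of 350001 bp held 14 of 2327 regions in the replicate 1 list, 12 of 2779 in the replicate 2 list and 79 of 16757 in a list that the authors deposited for the 2 replicates jointly, named the joint list below. All 9 genes had a single entry in the gene table and are followed below, with 41 other annotated genes of the window.

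Homeotic genes encode homeodomain transcription factors that give body segments their identity, and in flies their order along the chromosome follows the order of the body parts they pattern. In this complex lab, pb and Dfd act in segments of the head, Scr acts in the labial segment and the anterior thorax, and Antp acts in the thorax. The genes zen, zen2, bcd and ftz descend from homeotic genes but serve other embryonic roles. Polycomb and Trithorax group proteins, which act through chromatin, keep homeotic genes off or on in each cell lineage. Histone H3 is a core protein of every nucleosome, and a listed region is one that the deposited lists mark as significantly enriched, with an Input library named as the reference of each replicate. A base outside the lists is not shown to lack H3.

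The chromatin came from heads of adult wild-type Oregon-R flies (Oregon-R-modENCODE). The labels give the stage as Mixed Adult, name no treatment, and give no sex, no age and nothing on whether the replicates came from separate cages. An antibody named H3 antibody3 was used for 2 ChIP libraries, and each had its own Input library. Heads hold many cell types, so weak enrichment in many cells and strong enrichment in few cannot be told apart, and the region lists hold no marker of the tissue against which the label could be checked. Read depth is unknown, so no counting interval is given. The replicate values below carry the SD over 2 libraries, which allows no test between parts of the genome, and comparisons with the rest of 3R are descriptions.

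The complex was among the most densely covered stretches of its length on 3R in the joint list and in replicate 1, and less so in replicate 2. Regions covered 6.82% of the window in replicate 1, 5.76% in replicate 2 (6.29% ± 0.749, SD, n = 2) and 40.6% in the joint list. The rest of 3R was covered to 3.65%, 4.54% and 26.3% in the same order. The complex therefore stood above the rest of the arm in each list. The ratio was 1.87 by replicate 1, 1.27 by replicate 2 (1.57 ± 0.424) and 1.54 by the joint list.

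Windows of the same length were laid side by side outward from the complex, which gave 78 others on 3R. In the joint list the complex ranked 4 of 79 from the top, against a median of 24.6% and a middle 50% of windows between 21.3% and 30.4%. It ranked 5 of 79 in replicate 1, where the other windows had a median of 3.63%, and 21 of 79 in replicate 2, where their median was 4.41%. The windows above it in the joint list lay toward the far end of the arm, at 3R 25230065 to 25580065 (44.6%), 3R 24180062 to 24530062 (43.8%) and, at 43.1%, 3R 22430057 to 22780057. The window next to the complex was covered to 26.1% on the lower side and to 20.2% on the higher side, close to and below the arm as a whole. The complex held 24 protein-coding genes, and 73 of the other windows held more. Across the 78 other windows, covered share and gene number had a Spearman rho of 0.0214 in replicate 1, -0.108 in replicate 2 and -0.184 in the joint list, over windows of libraries they all share.

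**Figure D1:**
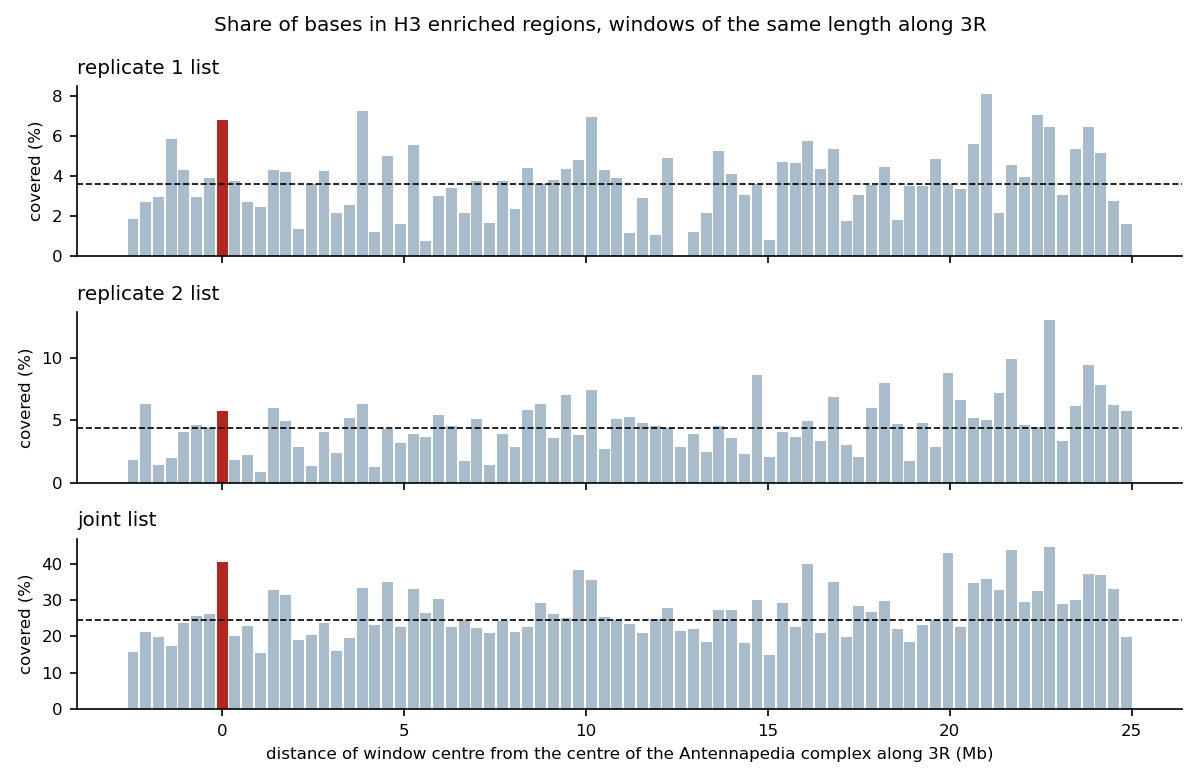
Percent of bases in H3 enriched regions (vertical axes, 1 panel for each list) in windows of 350001 bp along 3R, placed by the distance of their centre from the centre of the Antennapedia complex (Mb). The red bar is the complex and the dashed line the median of the 78 other windows: the red bar is at 6.82%, 5.76% and 40.6%, above its neighbours in all panels, with many bars of replicate 2 above it.

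Coverage was lower across the head end than across the stretches with Scr and Antp, though few replicate regions lay in each. Replicate 1 had 5 regions at the head end and 4 at the Antp end, and replicate 2 had 4 and 3. Replicate ratios between these ends therefore rest on few regions. The head end, from the window start to the end of Dfd (148151 bp), was covered to 4.80% in replicate 1, 3.65% in replicate 2 (4.23% ± 0.814) and 33.9% in the joint list. The stretch with Scr and ftz (93824 bp) was covered to 10.9%, 9.45% (10.2% ± 1.00) and 45.1%. The Antp end, from the start of the Antp span to the window end (108026 bp), was covered to 6.08%, 5.46% (5.77% ± 0.439) and 45.8%. Over all bases the Antp end thus exceeded the head end in both libraries, by a ratio of 1.26 and 1.49 (1.38 ± 0.162), and by 1.35 in the joint list. Members made up nearly all of the Antp end but a smaller part of the head end. Over bases in members alone, replicate 1 had the reverse order, with the head end covered more than the Antp end. Replicate 2 and the joint list kept the order there. The Scr and ftz stretch exceeded the head end by a ratio of 2.26 and 2.59 over the replicates (2.43 ± 0.230) and by 1.33 over the joint list. Relative to the rest of 3R, the head end was above it in replicate 1 (ratio 1.32) and the joint list (1.29) and below it in replicate 2 (0.805).

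Each stretch was also set against windows of its own length on 3R outside the complex. In the joint list the Antp end ranked 7 of 255, the Scr and ftz stretch 13 of 293 and the head end 36 of 185. In replicate 1 the ranks were 53 of 255, 6 of 293 and 57 of 185. In replicate 2 they were 85 of 255, 36 of 293 and 100 of 185. The head end was therefore near the middle of the arm in replicate 2, and the Scr and ftz stretch was in the upper part of the arm in each list.

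**Figure D2:**
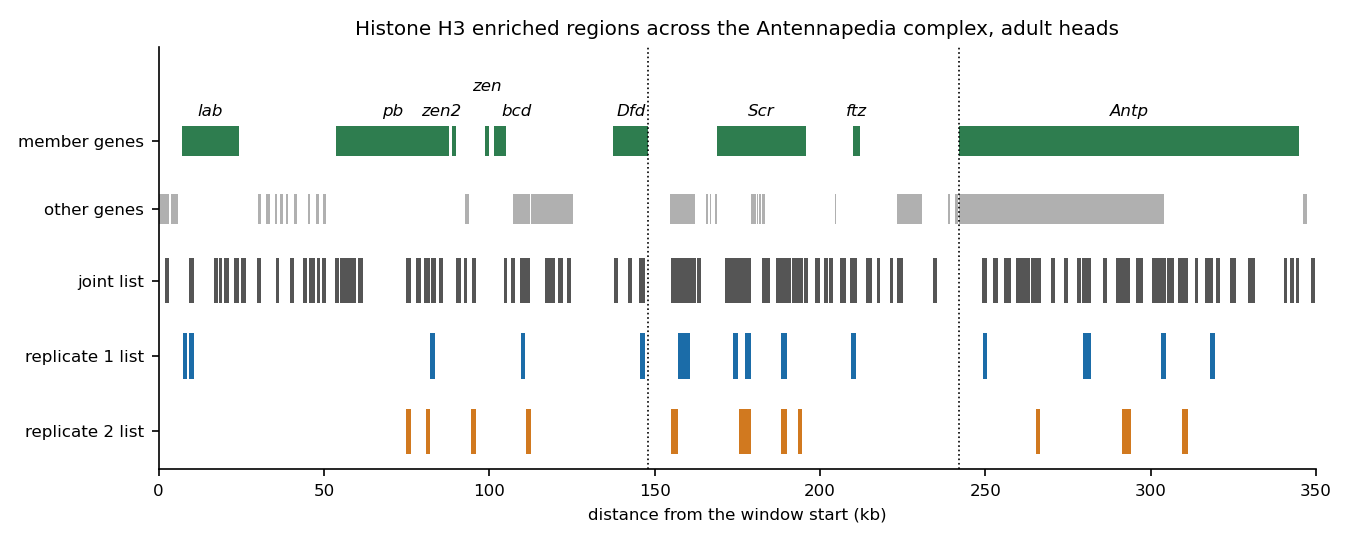
Map of the window, drawn to scale as distance from its start (kb), with the spans of the 9 members in green, the other annotated genes in grey, and the regions of the joint, replicate 1 and replicate 2 lists as bars. Dotted lines mark the end of Dfd and the start of Antp: the replicate bars lie closest together between them, in and before Scr.

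The head-forming genes lab, pb and Dfd were covered to similar shares in the joint list, and the replicates shared no region there. lab, which acts in the head and in the midgut, had 37.9% of its 17164 bp span in 5 joint regions, 16.8% in replicate 1 and 0% in replicate 2. Its replicate 1 regions were 3R 2487345 to 2488667 (score 0.578) and 3R 2489157 to 2490722 (0.529). The first of these met no joint region, unlike the other replicate regions of the window: 13 of 14 in replicate 1 (96.4% on the rest of 3R) and 12 of 12 in replicate 2 (98.0%) met one. The nearest replicate 2 region lay 12576 bp away, before the gene and outside the window. The authors' score has no stated scale and is used here only to order regions within a list.

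pb, which gives the adult mouthparts their identity, had 40.9% of its 34264 bp in 10 joint regions, 4.13% in replicate 1 and 7.84% in replicate 2. Its replicate 1 region, 3R 2562202 to 2563616, had the highest score of that list in the window (0.703, above 95.1% of replicate 1 regions on the rest of 3R). Its replicate 2 regions were 3R 2554923 to 2556235 (0.452) and 3R 2560773 to 2562144 (0.558). The last of these ended 57 bases before the replicate 1 region began, and the joint list held a region on each side of that border, 3R 2560385 to 2562141 and 3R 2562275 to 2563988. Enrichment in pb was split: 5 joint regions lay near its low-coordinate end, 5 in its high-coordinate part, and the 13180 bp between 3R 2541720 and 2554899 held none.

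Dfd, which acts in the mandibular and maxillary segments, had 36.9% of its 10593 bp in 3 joint regions, 13.3% in replicate 1 and 0% in replicate 2. The replicate 1 region was 3R 2625554 to 2626962 (score 0.628), inside the joint region 3R 2625338 to 2627169, whose score of 0.484 was the sixth highest of the window in its list. Dfd thus had regions at similar joint density to lab and pb, with none from replicate 2 within 6859 bp.

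The small embryonic genes between pb and Dfd carried the least. zen, which patterns the dorsal side of the early embryo, had 0% of its 1331 bp in any list, and the nearest joint region was 2587 bp away. zen2, its neighbour and close relative, had 21 bp of its 1002 bp at the edge of 1 joint region and none in the replicates. bcd, the maternal gene whose protein patterns the anterior of the embryo, had 22.3% of its 3625 bp in the joint region 3R 2584382 to 2585438 and none in the replicates. Between zen2 and zen, replicate 2 had a region at 3R 2574605 to 2575959 (score 0.524), 2627 bp from zen. Over genes of 3R with spans within 2-fold of theirs, the median joint share was 0% for zen and zen2 and 24.1% for bcd, so 0% is common among short genes.

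Ama, an immunoglobulin-superfamily cell adhesion protein gene beside bcd, had 60.7% of its 2669 bp in the joint region 3R 2589365 to 2592449, which is the longest of the head end at 3085 bp. Replicate 1 had a region there at 3R 2589475 to 2590879 (0.467), its lowest score in the window. Replicate 2 had 3R 2591099 to 2592470 (0.560), 219 bases further on, which covers the neighbouring lncRNA:CR44930 whole. The highest joint score of the window, 0.583 at 3R 2527862 to 2528891, lay over Ccp84Ab, a gene of the cuticle protein cluster between lab and pb, and 0 replicate regions met it. mir-993, the microRNA gene between Ama and Dfd, lay whole inside a joint region and in no replicate region. Taf1, which encodes a subunit of the general transcription factor TFIID, crosses the window start, and its replicate regions lay before the window.

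**Figure D3:**
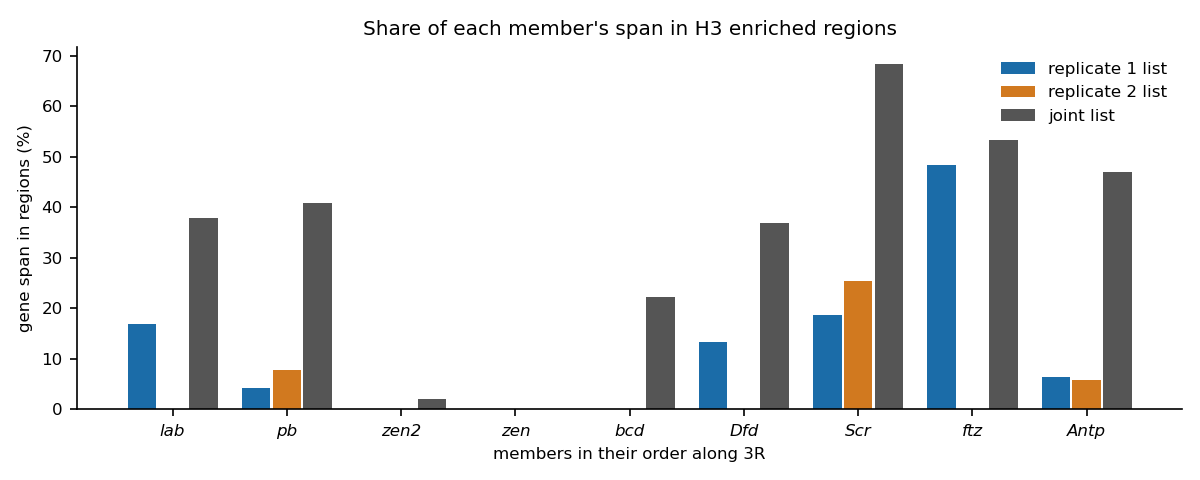
Percent of each member's span in regions of the replicate 1, replicate 2 and joint lists (vertical axis), with members in their order along 3R. Scr has the tallest joint bar at 68.4%, zen has none, and only pb, Scr and Antp have bars from both replicates.

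Scr, the homeotic gene of the labial and the first thoracic segment, was the most covered member in the joint list and in replicate 2. In replicate 1 ftz had the highest share, 48.4%. Only Scr had regions shared by the replicates. It had 68.4% of its 26862 bp in 6 joint regions, 18.6% in replicate 1 and 25.4% in replicate 2. Among 290 other protein-coding genes of 3R with spans within 2-fold of its own, the median joint share was 20.8%, and 99.3% had less than Scr. The same comparison placed 86.3% of genes below lab, 87.3% below pb, 80.5% below Dfd, 66.8% below ftz, 60.5% below zen2, 48.9% below bcd, 0% below zen and 89.7% of 58 genes below Antp. Genes with an equal share were not counted as below, so zen at 0% could have none below it. Only 43.7% of the genes compared with zen, and 40.0% of those compared with zen2, had any joint region. These shares are descriptions, and genes of 1 arm are not replicates of a member.

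Both shared places lay within Scr. Replicate 1 had 3R 2657305 to 2659018 (score 0.526) and replicate 2 had 3R 2657305 to 2659228 (0.607), which start at the same base and share 1714 bp. Replicate 1 had 3R 2668279 to 2670176 (0.577) and replicate 2 had 3R 2668190 to 2669936 (0.602), which share 1658 bp. Replicate 1 had a further region at 3R 2653714 to 2655091 (0.524), and replicate 2 had 3R 2655518 to 2657297 (0.518) and 3R 2673288 to 2674646 (0.373). The last score is the lowest of replicate 2 in the window and exceeds 0.260% of its scores on the rest of 3R. The shared regions lay in the joint regions 3R 2655508 to 2659158 (3651 bp) and 3R 2666860 to 2671266 (4407 bp), the latter the third longest of the window. lncRNA:CR45901, inside Scr, shared 74 bp with the former.

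The longest joint region of the window lay between Dfd and Scr. It spanned 3R 2634827 to 2642464 (7638 bp, score 0.449) and covered 95.9% of lncRNA:CR42651 and the whole of mir-10, the microRNA gene kept in Hox clusters of many animals. Replicate 1 had its longest region of the window there, 3R 2637077 to 2640698 (3622 bp, score 0.607, longer than 99.5% of its regions on the rest of 3R). Replicate 2 had its highest-scoring region of the window, 3R 2635009 to 2637067 (2059 bp, 0.668), which holds mir-10 and lncRNA:CR45915. The replicate regions did not overlap but were 9 bases apart, so they tiled neighbouring parts of the same joint region.

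ftz, a pair-rule gene that acts in alternate segments of the embryo, had 53.4% of its 1921 bp in 1 joint region, 3R 2689140 to 2691071 (score 0.502, the third highest of the window). Replicate 1 covered 48.4% of it with 3R 2689387 to 2690974 (0.701, the next highest after the region in pb), and replicate 2 had none within 15400 bp. Between ftz and Antp (30008 bp) coverage was 22.8% in the joint list and 0% in each replicate. The stretch between lab and pb (29209 bp) was also at 0% in each replicate but at 33.7% in the joint list.

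Antp, which specifies the mesothorax and its legs, is the longest member at 102976 bp and had 47.0% of its span in 23 joint regions, 6.37% in replicate 1 and 5.72% in replicate 2. Replicate 1 had 3R 2729167 to 2730554 (score 0.540), 3R 2759625 to 2761914 (0.686), 3R 2783015 to 2784544 (0.497) and 3R 2797972 to 2799327 (0.523). Replicate 2 had 3R 2745297 to 2746605 (0.559), 3R 2771310 to 2773955 (0.632) and 3R 2789472 to 2791410 (0.617). Both libraries had nearly the same share of the gene in different places: 0 of these regions met, and each lay at least 4927 bases from the nearest of the other library. Each of the 7 met a different joint region.

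Within Antp coverage was uneven. The span was divided into 4 parts of 25744 bp in order of position. Joint coverage was 48.9%, 44.2%, 60.9% and 34.1% from the low to the high end. Replicate 1 covered 5.39%, 8.90%, 10.7% and 0.470%, and replicate 2 covered 5.08%, 8.36%, 9.45% and 0%. The part next to the high end was the least covered in each list and the one before it the most covered. It still held the region with the next highest joint score of the window after that over Ccp84Ab, 3R 2809318 to 2811693 (0.545), and the fourth highest, 3R 2749931 to 2750948 (0.500), lay in the second part. The other joint region among the 5 highest, 3R 2529539 to 2530562 (0.495), lay over Ccp84Aa in the cuticle cluster. CG46458, an annotated gene of 62118 bp that overlaps Antp from its low end, had 48.9% in joint regions, which cannot be assigned to either gene. lncRNA:CR43252, inside Antp, lay whole in a joint region that met replicate 1.

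Joint regions were short from lab to Dfd and longer from Scr to Antp. Their median length was 1286 bp at the head end, 1858.5 bp in the Scr and ftz stretch and 1775 bp at the Antp end, against 1457 bp on the rest of 3R. Of the regions at the head end 1 of 37 was at least 2000 bp long, a limit chosen after the lengths were seen. In the Scr and ftz stretch 6 of 18 were that long and at the Antp end 11 of 24, beside 19.6% of joint regions on the rest of 3R. Other windows with a longer median than these stretches numbered 11 of 292 for the Scr and ftz stretch, 14 of 254 for the Antp end and 167 of 184 for the head end. The head end held 24.97 joint regions per 100 kb, the Scr and ftz stretch 19.2 and the Antp end 22.2, where the rest of the arm had 15.8. In the joint list the head end thus had the most regions for its length and the least coverage of these stretches. In the replicates the head end had 3.37 and 2.70 regions per 100 kb and the Antp end 3.70 and 2.78. The Scr and ftz stretch, which had the fewest for its length in the joint list, had the most in each replicate, 5.33. The 5 longest regions of the window were that over mir-10, 3R 2769450 to 2773884 (4435 bp) and 3R 2739240 to 2743601 (4362 bp) in Antp, and 3R 2666860 to 2671266 (4407 bp) and 3R 2651191 to 2655411 (4221 bp), both inside Scr.

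**Figure D4:**
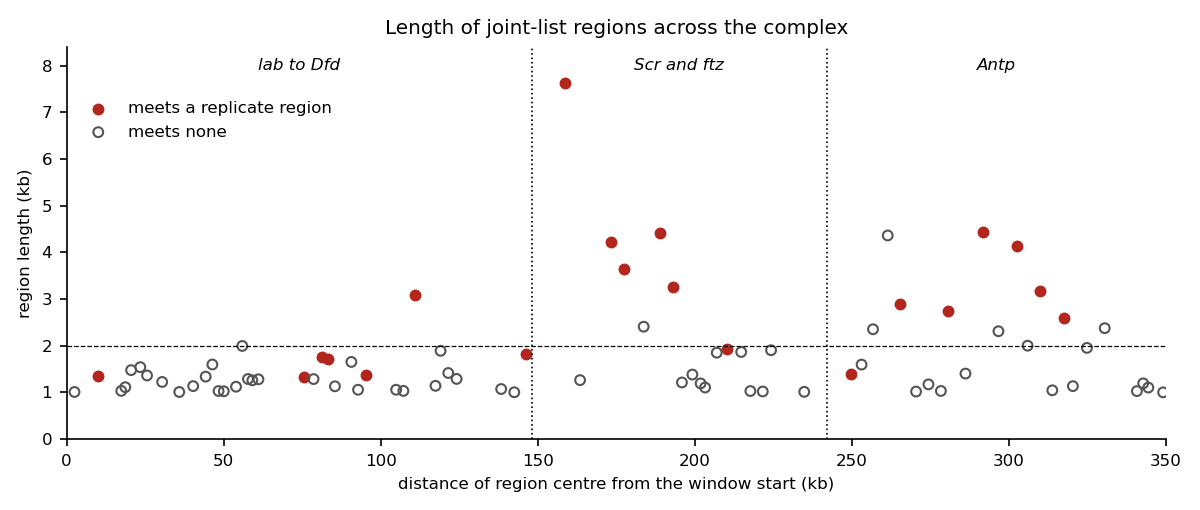
Length of the 79 joint regions (kb) against the distance of their centre from the window start (kb), filled where a replicate region met them and open where none did. Dotted lines mark the end of Dfd and the start of Antp and the dashed line 2 kb: left of the first dotted line a single region passes 2 kb, and the filled points right of it are mostly above that line.

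Replicate regions were too few for the same reading of length. Of the replicate regions in the window 2 of 14 and 2 of 12 were at least 2000 bp long, beside 9.35% and 10.4% on the rest of 3R, and the 4 lay between Dfd and the window end. Replicate 1 regions of the window had a median length of 1472.5 bp, against 1490 bp on the rest of the arm, and replicate 2 regions 1559.5 bp, against 1511 bp. Scores in the window had medians of 0.559 in replicate 1 and 0.560 in replicate 2, against 0.565 and 0.592, and of 0.414 in the joint list, against 0.402. The replicate medians thus lay below those of the arm and the joint median above it. Of the 78 other windows, 41 had a higher median score in replicate 1, 52 in replicate 2 and 15 in the joint list.

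Recurrence between the replicates in the complex was close to that of the arm. Of the replicate 1 regions 2 of 14 met a replicate 2 region, beside 19.2% on the rest of 3R, and of the replicate 2 regions 2 of 12 met a replicate 1 region, beside 15.7%. Of the 79 joint regions 13 met replicate 1 (13.7% on the rest of 3R), 11 met replicate 2 (17.2%), 4 met both (3.03%), 20 met 1 or both (27.9%) and 59 met neither (72.1%). Long regions were met more often than short ones in the complex as on the arm: 12 of 18 regions of at least 2000 bp were met by 1 or both replicates, against 8 of 61 shorter ones, beside 62.7% and 19.4% on the rest of 3R. Regions that met or lay within 500 bp of the other replicate were 6 of 14 in replicate 1 and 6 of 12 in replicate 2, beside 23.3% and 19.2% on the rest of 3R. They lay in pb, at Ama, over lncRNA:CR42651 and in Scr. This distance limit was chosen after the regions were seen, and the regions of a library are not independent of each other.

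The 3 longest stretches without any joint region each ran into a member or lay inside one, and members make up 57.1% of the window. The longest, 3R 2715343 to 2729149 (13807 bp), runs into the low-coordinate end of Antp, between the joint regions 3R 2714331 to 2715342 and 3R 2729150 to 2730535. The next lay inside pb, 3R 2541720 to 2554899 (13180 bp), between 3R 2540439 to 2541719 and 3R 2554900 to 2556221. The third, 3R 2604810 to 2617817 (13008 bp), reached the low-coordinate end of Dfd, between 3R 2603521 to 2604809 and 3R 2617818 to 2618889. The replicate lists had 0 bp in each of the 3. Of 4438 gaps on 3R 6.47% were longer than the longest, so gaps of this size are not rare on the arm. Without any region, replicate 1 had its longest stretch from 3R 2490723 to 2562201 (71479 bp), over the cuticle genes, and replicate 2 from the window start to 3R 2554922 (74923 bp). The tRNA:Lys and 7SL RNA genes just before Scr, with spans of 73 bp and 299 bp, also lay in no region of any list. Of protein-coding genes of 3R with a span within 2-fold of zen2 39.97% had a joint region, so having none is common among short genes. They are related genes, and the treatment of reads that map to several of them is not given in the sources used here.

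Enrichment in the complex lay in genes more than between them. Bases in the 9 members were covered to 9.11% in replicate 1, 7.70% in replicate 2 and 46.6% in the joint list. Bases of the window in no annotated gene were covered to 0.661%, 1.51% and 26.3%. The ratio of the former to the latter was 13.8 and 5.11 over the replicates (9.44 ± 6.13) and 1.77 over the joint list. Bases of the window in another gene only were covered to 9.93%, 6.49% and 45.0%, with ratios of 15.0, 4.30 and 1.71. The contrast was therefore not particular to the members. Most covered bases in another gene only lay, in the replicates, in lncRNA:CR42651 (3622 bp in replicate 1 and 2059 bp in replicate 2). At the head end, which does not hold that gene, bases in another gene only were covered to 4.42%, 3.86% and 43.1%. The contrast of members with bases in no gene was small there in replicate 2, with 3.95% in members and 3.10% in no gene. On the rest of 3R the ratio of bases in genes to bases in none was 1.08, 0.904 (0.993 ± 0.125) and 0.924. The direction was the same in both libraries within the complex, while its size was imprecise because few replicate bases lay outside genes.

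Of the 9 members 8 had a joint region over their span, 6 had a replicate 1 region and 3 (pb, Scr and Antp) a replicate 2 region. Among 3378 other protein-coding genes of 3R the shares were 54.5%, 13.1% and 13.6%. The members are long, with a median span of 10593 bp against 2098 bp, and a longer span has more bases with which to meet a region. Among genes with spans within 2-fold of a member's, 77.7% to 100% had a joint region for lab, pb, Dfd, Scr and Antp. For zen2, zen, bcd and ftz these shares were 40.0% to 57.7%. With at least 500 bp of the span in joint regions required, 7 members remained. The gene table used here gives no strand, so both ends of each span were taken in place of the transcription start. Of 18 ends 5 (27.8%) lay in a joint region. These were the low ends of pb and ftz and the high ends of zen2, bcd and Scr. The share was 16.4% over the ends of the other protein-coding genes. Over the ends of the other homeobox genes listed below it was 27.5% (11 of 40), close to that of the members.

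Of 20 other homeobox genes listed for the arm, 19 had a joint region over their span, 11 a replicate 1 region and 13 a replicate 2 region, against 8, 6 and 3 of the 9 members. The 20 were picked by name for this report, and the list was not checked to hold every homeobox gene of the arm. Their median share was 43.4% in the joint list, 4.94% in replicate 1 and 7.24% in replicate 2, and that of the members was 37.9%, 6.37% and 0%. Over all their bases together the joint share was 39.2%, against 46.6% for the members. The difference between the groups of genes was not tested. The median span of the 20 was 10844 bp. The homeotic genes of the bithorax complex, which pattern the posterior thorax and the abdomen, had 42.4% (Ubx), 61.3% (abd-A) and 51.1% (Abd-B) of their spans in joint regions. In the replicates the shares were 4.46% and 3.62% for Ubx, 30.1% and 8.60% for abd-A, and 5.95% and 18.8% for Abd-B. The highest shares in the list were those of bap (100% of 1570 bp) and btn (100% of 477 bp), both active in the mesoderm, and Dr (74.5%), active in the nervous system and muscle. The lowest were those of C15 (15.3%), NK7.1 (13.1%) and ems, a head gap gene, with 0% of 2768 bp in any list.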

How the data were processed

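Per the file headers, the authors deposited regions on FlyBase release 5, each with a start, an end and a score of unstated scale. The submitters' processing notes name Bowtie 0.12.7 without a role. How regions were called, at which limit, how the replicates were joined and how deeply they were sequenced: not given in the sources used here. Input enters only through that calling.

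Gene spans came from RefSeq's table on release 6 and were placed on release 5 by a constant shift of 4174278 bp for 3R, so their positions are not those of a release 5 annotation and are not printed. The shift was checked on 6748 ends of protein-coding spans of 3R: 16.4% lay in joint regions, the lowest of the offsets tried, against 24.8% to 26.9% with spans moved by 2 to 50 kb. Within 2 Mb of the complex the values were 14.6% and 20.9% to 25.6%.

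Regions were counted at 1 bp of overlap and bases clipped to the window. Functions were tested on simulated lists. Named genes were the members, other genes of the window under a replicate region or under the highest or longest joint region, its microRNA genes, Ubx, abd-A, Abd-B and the 3 highest and 3 lowest of 20 homeobox genes. Other genes of the cuticle cluster than Ccp84Ab and the tRNA:Lys and 7SL RNA genes fall outside this rule and were named after their values were seen. The members and lists were chosen with earlier results of these data known. A count of 5′ ends was replaced by span ends, since the gene table used has no strand. Alternatives were each replicate list, score and length limits, joining, window edges, overlap rules and gene flanks. Tools were matplotlib 3.10.9, scipy 1.17.1, pandas 2.3.3 and numpy 2.4.6 under Python 3.11.15.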

Additional observations from a re-analysis of the deposited data

How the results depend on the processing

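The Antp end exceeded the head end, and the complex the rest of 3R, under each alternative run for these ratios. For these ratios the alternatives other than the replicate lists used the joint list only. Over bases in members alone, replicate 1 had the reverse order of the ends, with the head end covered more than the Antp end. Replicate 2 and the joint list kept the order there. Using each replicate list alone, the covered share was 5.76% to 6.82% for the complex, 3.65% to 4.80% for the head end and 5.46% to 6.08% for the Antp end, the rank 5 to 21, and there were 12 to 14 regions of median length 1472.5 to 1559.5 bp and median score 0.559 to 0.560. The longest gap was then 71479 to 74923 bp, 3 to 6 members and 11 to 13 other homeobox genes had a region, and 0 to 1 span ends lay in one. At or above the median score the values were 22.1% (complex), 2.00 (ratio to the rest of 3R), 11.9% (head end), 26.2% (Antp end), 2.20 (ratio of the ends), 39 regions, 1541 bp, 0.445 (score), 30077 bp (gap), 0 replicate regions met, 7 joint regions met and 1 span end. With regions of at least 1500 bp they were 24.9%, 11.5%, 34.2%, 2.97, 32 regions, 2331.5 bp, 0.433, 27074 bp, 8 joint regions met and 2 span ends. These limits leave fewer regions by construction. Joining regions closer than 500 bp gave 41.6%, 47.1% for the Antp end and a median score of 0.421. A window from the first to the last base of the members gave 41.5%, 34.9% and 47.0% for the complex and its ends, and 50 kb more on each side gave 39.1%, 35.5%, 40.1%, a ratio of 1.13 and a score of 0.410. Among sliding windows every 10 kb the rank was 84 of 2687. With an overlap of 50% of both regions 12 joint regions were met, and within 500 bp of a region lay 8 span ends. Moving gene positions by 1 kb, chosen after seeing the data, left the ratio of the ends at 1.33 to 1.37 and 6 to 8 members with a region. Counts at gene starts were not run for want of strand. No paired analysis was possible because Input values enter the lists only through the calling. With depth unknown, a region absent from a replicate list is not shown to lack enrichment.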

Other observations

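Among the 8 annotated cuticle protein genes between lab and pb, 4 had most of their span in joint regions and 4 had none. Edg84A lay whole in a joint region, and Ccp84Af, Ccp84Ab and Ccp84Aa had 93.3%, 81.1% and 92.3% of their spans in joint regions. Ccp84Ag, Ccp84Ae, Ccp84Ad and Ccp84Ac had 0%, with the nearest region 11 to 1413 bp away. Of the other protein-coding genes of 3R 54.5% had a joint region over their span, and of those with a span within 2-fold of zen2 39.97% did, so 4 of 8 is near the background. The replicate lists had no region over any of the 8. These genes were looked at after their values were seen. They are related genes of a cluster, and the treatment of reads that map to several of them is not given in the sources used here.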
